A study of Mus musculus with 346 samples.

Results

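Pancreatic progenitor transcription factors are DNA-binding proteins that set up the epithelium of the early pancreas. Here they are 7 genes taken by name (Pdx1, Ptf1a, Nkx6-1, Nkx6-2, Mnx1, Gata4 and Prdm16). All 7 were among the 20474 genes of the deposited table. They were described by their level, by the share of cells in which they were detected, and by how often 2 of them were detected in 1 cell.

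The mouse pancreas grows from a dorsal and a ventral bud of the foregut, and the ventral bud arises next to the liver. Pdx1 and Ptf1a are required for these buds to grow, Mnx1 is required for the dorsal bud to form, and the Nkx6 pair and Gata4 act in the bud epithelium. As the epithelium matures, Ptf1a becomes an acinar factor, while Pdx1 and Nkx6-1 are kept in insulin-producing β cells.

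The study profiled single cells by Smart-seq2, a plate method that reads full-length transcripts. All cells came from Tg(Prox1-EGFP) mouse embryos, in which a transgene marks cells that use Prox1, a homeobox gene of the liver and pancreas, and were sorted as GFP-positive, so that cells without the reporter are outside these data. The groups were 82 cells of the foregut endoderm at E8.5 (plate 1A), 27 from the E10.5 ventral pancreatic bud (plate 3), 86 from the E10.5 dorsal pancreatic bud (48 on plate 2A and 38 on plate 2B), 78 from the E10.5 liver bud (plate 5A) and 73 labelled pancreatic epithelium at E14.5 (plate 4A). The embryo a cell came from was not named, so each group is 1 sample, the SD given is the spread between cells, and no group difference was tested.

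The reads per cell, recovered from the deposited values, had a median of 1029064.5 in foregut, 851654 in ventral, 871445.5 in dorsal, 2510704.5 in liver and 811359 in E14.5 cells. A gene was called detected at 5 or more normalized reads, which is 2.585 on the deposited log2 scale. Intervals are exact Clopper-Pearson 95% intervals, and where no cell held a gene the share is at most 3 cells of the group. Reads are copied by PCR, so both cover counting error only. Prox1 itself was detected in 71 foregut cells, 27 ventral, 83 dorsal, 66 liver and 24 E14.5 cells. The tissue labels were only partly borne out by marker genes. At least 2 of 8 epithelial genes (such as Epcam and Cdh1) were detected in 14 of 82 foregut cells, 27 of 27 ventral cells, 68 of 86 dorsal cells, 12 of 78 liver cells and 13 of 73 E14.5 cells. Of these, 6 foregut, 5 dorsal and 6 liver cells sat exactly at 2 genes, and 29, 12 and 30 further cells were just under. At least 3 of 10 hepatic genes were detected in 47 of the 78 liver cells. At least 3 of 9 neural tube genes were detected in 47 of the foregut cells, and at least 3 of 10 mesenchyme genes (collagens, Pdgfra) in 58 of the E14.5 cells. These marker groups are ranges of a count, they can overlap, and they are not cell types.

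On GRCm38 with GENCODE M21, Pdx1 lies at chr5:147269959-147275848 on the plus strand, Ptf1a at chr2:19445663-19447501 plus, Nkx6-1 at chr5:101658139-101664996 minus and Nkx6-2 at chr7:139579376-139582797 minus. Mnx1 lies at chr5:29473034-29478470 minus, Gata4 at chr14:63198922-63271692 minus and Prdm16 at chr4:154316125-154636873 minus. RefSeq (GRCm38.p6) gave promoters for 6 of the 7 members, Gata4 being the one without an entry. The promoters of Pdx1 (chr5:147269847-147270146, plus strand), Nkx6-2 (chr7:139582748-139583047, minus strand) and Nkx6-1 (chr5:101664662-101664961, minus strand) are shown because the first pair were detected in the same dorsal cells and the Nkx6 pair parted between stages. Each runs from 250 bases before the RefSeq transcription start to 50 after it, and capitals mark TAAT (a core read by homeodomains), GATAA (bound by zinc fingers such as Gata4) and CANNTG (the E-box of basic helix-loop-helix proteins) on either strand.
Pdx1: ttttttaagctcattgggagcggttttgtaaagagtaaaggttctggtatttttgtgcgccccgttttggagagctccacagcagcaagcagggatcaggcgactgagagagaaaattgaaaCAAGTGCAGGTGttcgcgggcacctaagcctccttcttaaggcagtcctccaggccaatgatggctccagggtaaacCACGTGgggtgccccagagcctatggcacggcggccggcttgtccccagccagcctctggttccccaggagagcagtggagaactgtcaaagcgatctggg
Nkx6-2: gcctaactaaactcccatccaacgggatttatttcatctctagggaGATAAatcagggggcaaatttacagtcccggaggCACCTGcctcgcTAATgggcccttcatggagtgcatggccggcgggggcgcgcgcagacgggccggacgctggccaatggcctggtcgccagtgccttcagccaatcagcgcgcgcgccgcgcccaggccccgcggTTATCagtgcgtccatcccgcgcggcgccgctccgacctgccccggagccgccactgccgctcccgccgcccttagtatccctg
Nkx6-1: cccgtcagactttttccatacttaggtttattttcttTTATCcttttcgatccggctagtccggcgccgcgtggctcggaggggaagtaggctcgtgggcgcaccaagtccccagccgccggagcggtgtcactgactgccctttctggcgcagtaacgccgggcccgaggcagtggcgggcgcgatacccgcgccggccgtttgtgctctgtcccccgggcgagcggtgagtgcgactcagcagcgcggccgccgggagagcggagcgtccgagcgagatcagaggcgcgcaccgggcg
The Pdx1 promoter held 3 CANNTG matches, at -128, -122 and -51 from the start, and neither of the other motifs. That of Nkx6-2 held 1 TAAT at -158, 2 GATAA at -204 and -34 and 1 CANNTG at -170, and that of Nkx6-1 held 1 GATAA at -213. Such matches are common, since TAAT occurs in 58%, GATAA in 25.4% and CANNTG in 72.3% of 32851 promoters of the same length, and they describe letters, not binding.

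Pdx1, the homeobox gene that marks the pancreatic field, was found in both buds and rarely elsewhere. It was found in 8 of 27 ventral cells (29.6%, 13.8 to 50.2), 34 of 86 dorsal cells (39.5%, 29.2 to 50.7) and 5 of 73 E14.5 cells (6.85%, 2.26 to 15.3). No foregut or liver cell had a single Pdx1 read, which allows up to 3.66% and 3.85% of cells. The liver cells were the most deeply read of all but had the fewest genes per cell, with a median of 2813 against 4991.5 in dorsal cells. The dorsal and ventral intervals overlap, the E14.5 interval lies below the dorsal one, and it overlaps the ventral one slightly. In the 8 ventral cells the log2 values were 6.23, 7.84, 8.02, 9.15, 9.26, 9.48, 9.85 and 10.47. In the 34 dorsal cells the lowest, median and highest log2 values were 4.18, 7.87 and 9.80. In the 5 E14.5 cells they were 5.14, 7.48, 8.14, 8.14 and 9.59. The ranges of level in cells with Pdx1 therefore overlapped in all 3 groups. Per kb of exonic length, their median was 273 normalized reads in ventral, 108 in dorsal and 130 in E14.5 cells. The share of cells that held Pdx1 was lower at E14.5 than in the dorsal bud. Averaged over all cells, the mean log2 value was 2.69 ± 4.10 in the ventral bud, 3.07 ± 3.89 in the dorsal bud and 0.53 ± 2.00 at E14.5 (SD over cells).

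Ptf1a, the basic helix-loop-helix factor of the multipotent and later the acinar pancreas, was restricted to few bud cells. It was detected in 4 of 27 ventral cells (14.8%, 4.19 to 33.7), 11 of 86 dorsal cells (12.8%, 6.56 to 21.7) and 1 E14.5 cell, and in no foregut or liver cell (up to 3.66% and 3.85%). The ventral log2 values were 5.96, 6.90, 7.12 and 7.24. The dorsal ones had a lowest, median and highest of 3.20, 5.81 and 7.37, and the E14.5 cell had 7.20. The shares of the 2 buds lie within each other's intervals, and the E14.5 cell sits among the higher values of both buds.

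**Figure D1:**
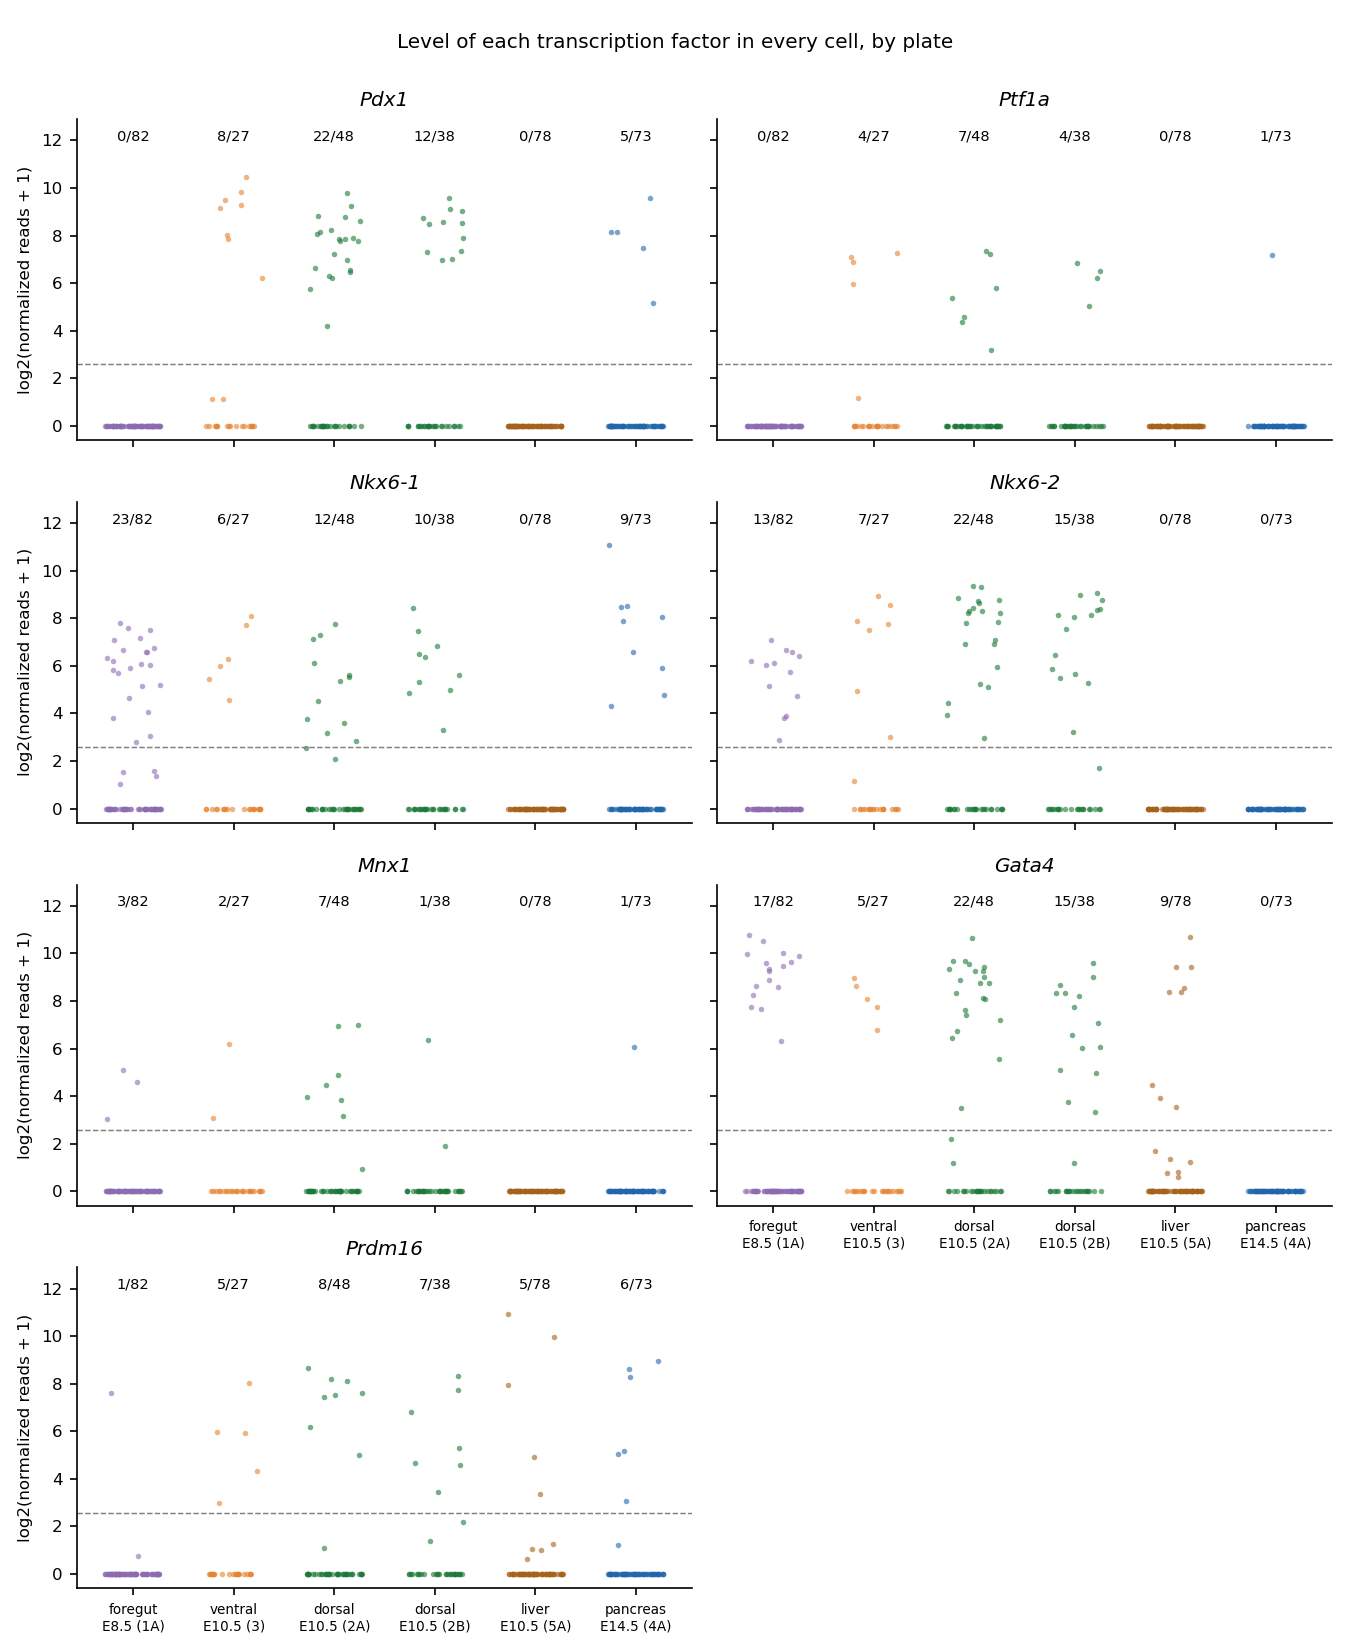
Level of the 7 members in single cells. The vertical axis is the deposited log2 value (log2 of normalized reads plus 1), each point is 1 cell, plates run along the horizontal axis, the dashed line marks the limit of 2.585, and the fractions give detected of all cells. Most cells lie at 0 for every member, Pdx1 and Ptf1a hold no foregut or liver cell, and Nkx6-1 reaches its highest value, 11.10, on the E14.5 plate.

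Nkx6-1, a homeobox repressor needed for β cells and also used in the ventral neural tube, was spread over the pancreatic groups and the foregut plate alike. It was detected in 23 of 82 foregut cells (28%, 18.7 to 39.1), 6 of 27 ventral cells (22.2%, 8.62 to 42.3), 22 of 86 dorsal cells (25.6%, 16.8 to 36.1) and 9 of 73 E14.5 cells (12.3%, 5.80 to 22.1). No liver cell held it (up to 3.85%). All 4 intervals overlap. The lowest, median and highest log2 values in detected cells were 2.82, 6.07 and 7.79 in the foregut, and 2.83, 5.57 and 8.44 in the dorsal bud. The 6 ventral cells had 4.58, 5.45, 6.0, 6.29, 7.72 and 8.09. The 9 E14.5 cells had 4.29, 4.77, 5.93, 6.58, 7.90, 8.04, 8.48, 8.51 and 11.10. Thus 3 E14.5 cells lay above every dorsal cell, while the other 6 lay inside the dorsal range.

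Nkx6-2, the paralog of Nkx6-1, had the widest dorsal detection together with Gata4. It was detected in 13 of 82 foregut cells (15.9%, 8.72 to 25.6), 7 of 27 ventral cells (25.9%, 11.1 to 46.3) and 37 of 86 dorsal cells (43%, 32.4 to 54.2). No liver and no E14.5 cell had a read (up to 3.85% and 4.11%). The dorsal interval lies above the foregut one and overlaps the ventral one. In detected cells the lowest, median and highest log2 values were 2.87, 6.03 and 7.10 in the foregut and 2.96, 8.05 and 9.38 in the dorsal bud. The 7 ventral cells had 3.01, 4.93, 7.49, 7.75, 7.87, 8.56 and 8.93. The foregut cells were therefore the lower ones as well as the fewer ones. Inpp5a, on the opposite strand, shares 246 exonic bases with Nkx6-2, and because no source used here gives the strand setting of the counting, reads in that stretch cannot be told apart. Inpp5a was detected in 11 of the 37 dorsal cells with Nkx6-2 and in 6 of the 49 without it.

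Mnx1, the homeobox gene of the dorsal bud, the notochord and motor neurons, was the rarest member. It was detected in 3 foregut cells (log2 3.03, 4.61 and 5.12), 2 ventral cells (3.10 and 6.18), 8 of 86 dorsal cells (9.30%, 4.10 to 17.5) and 1 E14.5 cell (6.06), and in no liver cell (up to 3.85%). The dorsal log2 values ran between 3.17 and 7.01 with a median of 4.70. Plate 2A held 7 of the 8 dorsal cells and plate 2B the other, so its dorsal share (14.6% and 2.63%) is the least even of the 7 between these plates.

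Gata4, a zinc finger factor of the endoderm and the heart, was detected in 17 of 82 foregut cells (20.7%, 12.6 to 31.1), 5 of 27 ventral cells (18.5%, 6.30 to 38.1), 37 of 86 dorsal cells (43%, 32.4 to 54.2) and 9 of 78 liver cells (11.5%, 5.41 to 20.8). No E14.5 cell had a read (up to 4.11%). The dorsal interval lies above the foregut and the liver ones and overlaps the ventral one. In detected cells the lowest, median and highest log2 values were 6.32, 9.33 and 10.76 in the foregut, and 3.35, 8.20 and 10.67 in the dorsal bud. The 5 ventral cells had 6.78, 7.75, 8.10, 8.62 and 8.96, and the 9 liver cells had 3.54, 3.90, 4.48, 8.37, 8.38, 8.54, 9.43, 9.44 and 10.69. The liver values split into 3 low and 6 high cells, and the highest median belonged to the foregut cells, not to a bud.

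Prdm16, a PR domain zinc finger protein best known for setting brown fat identity, was detected in every group. It was found in 1 foregut cell (log2 7.60), 5 of 27 ventral cells (18.5%, 6.30 to 38.1), 15 of 86 dorsal cells (17.4%, 10.1 to 27.1), 5 of 78 liver cells (6.41%, 2.11 to 14.3) and 6 of 73 E14.5 cells (8.22%, 3.08 to 17). In detected cells the lowest, median and highest log2 values were 3.01, 5.91 and 8.02 in the ventral bud and 3.45, 7.43 and 8.66 among dorsal cells. Liver cells had 3.36, 7.96 and 10.92, and E14.5 cells had 3.07, 6.74 and 8.94. The bud, liver and E14.5 intervals overlap, and the highest single cell was in the liver.

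**Figure D2:**
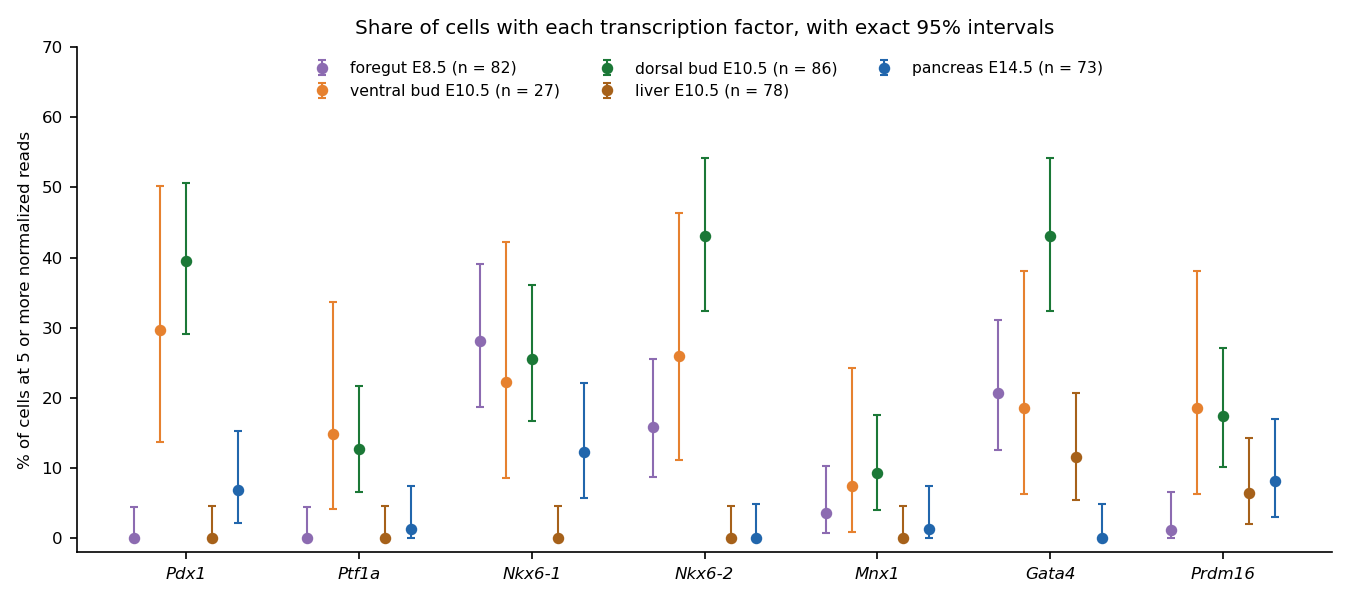
Share of cells in which each member was detected. Points give the percentage of cells at 5 or more normalized reads (vertical axis) for each member (horizontal axis) and group (colour), and lines the exact Clopper-Pearson 95% intervals. Nkx6-2 and Gata4 reach 43% in the dorsal bud and 0 at E14.5, and Nkx6-1 has overlapping intervals in the 4 groups that hold it.

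Most of these counts held at equal depth. A limit in normalized reads asks for more reads in deeper cells, so every cell was also thinned to 500000 reads and a gene called at 5 reads, a setting added after the data were seen. Nkx6-1 was then detected in 20 foregut cells (23 unthinned) and 18 dorsal cells (22 unthinned). Single cells were lost for Nkx6-2 (6 ventral and 36 dorsal), Mnx1 (1 ventral and 7 dorsal) and Prdm16 (4 liver and 5 E14.5), and the other counts were the same. Pdx1, Ptf1a and Gata4 moved in no group.

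The 2 dorsal plates gave shares of 45.8% (2A) and 31.6% (2B) for Pdx1 and of 45.8% and 39.5% for both Nkx6-2 and Gata4, while 43 of 48 cells on 2A and 25 of 38 on 2B had at least 2 epithelial genes. Among those epithelial cells alone Pdx1 was detected in 22 of 43 on 2A and 12 of 25 on 2B.

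To compare levels between genes, normalized reads were divided by exonic length in kb. In dorsal cells that held the gene, the median was 139 normalized reads per kb for Nkx6-2, 108 for Pdx1 and 75 for Gata4, against 36.5 for Ptf1a, 18.4 for Prdm16, 14.9 for Nkx6-1 and 11.2 for Mnx1. In ventral cells Pdx1 led with 273 per kb, followed by Nkx6-2 with 113 and Ptf1a with 85. In foregut cells Gata4 led with 165 per kb, with Nkx6-2 at 33.6 and Nkx6-1 at 21.2. At E14.5 Pdx1 stood at 130 per kb in 5 cells and Nkx6-1 at 75.8 in 9 cells. The single E14.5 Ptf1a cell stood at 96.9.

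Members gathered in the same cells in the buds and hardly elsewhere. At least 1 member was detected in 44 of 82 foregut cells (53.7%), 13 of 27 ventral (48.1%), 60 of 86 dorsal (69.8%), 13 of 78 liver (16.7%) and 16 of 73 E14.5 cells (21.9%). At least 2 were detected in 13 foregut, 10 ventral, 48 dorsal, 1 liver and 6 E14.5 cells. The 6 E14.5 cells each held Pdx1 or Nkx6-1, which were detected there only in the 13 epithelial cells. At least 3 members were detected in 7 ventral cells (25.9%) and 30 dorsal cells (34.9%), and in none of the foregut, liver or E14.5 cells (up to 3.66%, 3.85% and 4.11%). In the foregut Gata4 was detected with none of the other 6 in 16 cells, Nkx6-1 alone in 11, and the Nkx6 pair together in 10. In the dorsal bud 1 cell held 6 members, all but Gata4. Pdx1 was the sole member in just 1 dorsal cell, and 33 of its 34 dorsal cells held another.

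**Figure D3:**
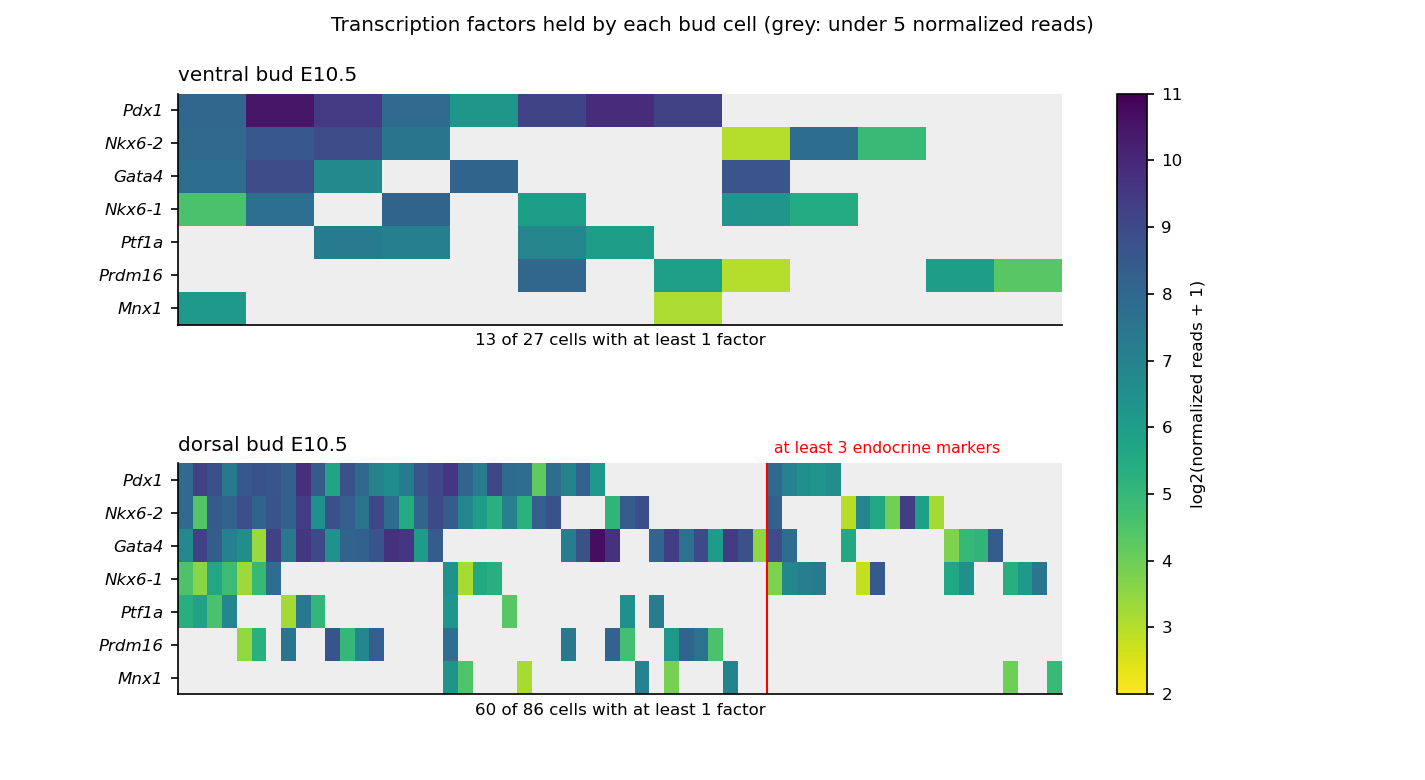
Members in each bud cell that held at least 1 of them. Columns are cells (13 ventral, 60 dorsal), rows are members, colour is the deposited log2 value, and grey is under the limit, and dorsal cells right of the red line have at least 3 endocrine markers. Pdx1, Nkx6-2 and Gata4 share many columns in the dorsal bud, and Nkx6-1 extends into the cells right of the line.

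Pdx1 and Nkx6-2 made the most frequent dorsal pair. Nkx6-2 was detected in 27 of 34 cells with Pdx1 (79.4%, 62.1 to 91.3) and in 10 of 52 without it (19.2%). The pair held on each plate, with Nkx6-2 in 16 of 22 Pdx1 cells on 2A and in 11 of 12 on 2B. None of the 18 dorsal cells under 2 epithelial genes held Pdx1 or Nkx6-2. Among the 68 epithelial cells the shares were 27 of 34 with Pdx1 and 10 of 34 without it. Where the pair met, both genes were also at a higher level: Pdx1 averaged 8.0 on the log2 scale in the 27 cells with Nkx6-2 and 6.81 in the 7 cells without it, and Nkx6-2 averaged 7.65 in the 27 cells with Pdx1 and 6.02 in the 10 without it.

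Gata4 and Ptf1a were each more frequent beside Pdx1. Gata4 was detected in 23 of 34 dorsal cells with Pdx1 (67.6%) and in 14 of 52 without it, and among epithelial cells in 23 of 34 and 12 of 34. Beside Nkx6-2 it was detected in 21 of 37 epithelial cells, against 14 of 31 without it, and 29 of the 37 dorsal Gata4 cells held no Ptf1a. Of the 11 dorsal Ptf1a cells, 9 held Pdx1 (81.8%), against 25 of 75 cells without Ptf1a, and 10 held Nkx6-2 (90.9%, 58.7 to 99.8), against 27 of 75. Pdx1 averaged 8.58 on the log2 scale in the 9 cells with Ptf1a and 7.46 in the 25 without it, and no Ptf1a-positive cell had Pdx1 under 7.37 where Pdx1 was detected. On plates 2A and 2B, Pdx1 was detected in 6 of 7 and 3 of 4 Ptf1a cells.

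Prdm16 paired with Gata4 rather than with Nkx6-1. Gata4 was detected in 13 of 15 dorsal cells with Prdm16 (86.7%, 59.5 to 98.3) and in 24 of 71 without it, with 8 of 8 on plate 2A and 5 of 7 on plate 2B. Nkx6-1 was detected in 3 of 15 cells with Prdm16 and 19 of 71 without it, and these 3 were all on plate 2B. Mnx1 showed no such preference, with Pdx1 in 3 of 8 Mnx1 cells and 31 of 78 others, and Gata4 in 2 of 8 and 35 of 78.

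**Figure D4:**
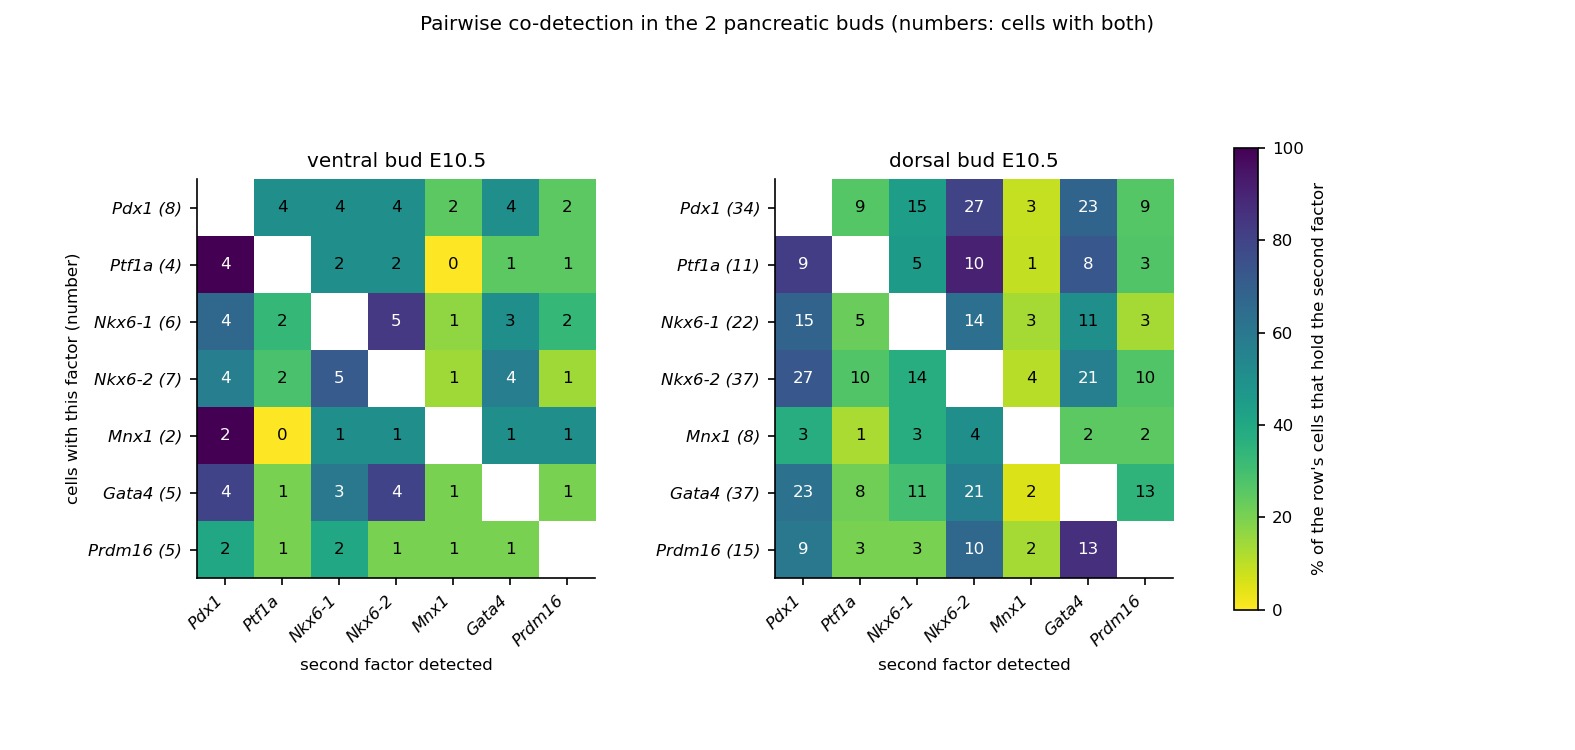
Pairwise co-detection in the ventral (left) and dorsal (right) bud. Each row is the set of cells with 1 member (their number in brackets), each column the second member, the printed number the cells with both, and the colour their percentage of the row. Dorsal Ptf1a cells held Nkx6-2 in 10 of 11 and Prdm16 cells held Gata4 in 13 of 15, and all 4 ventral Ptf1a cells held Pdx1.

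Nkx6-1 too was more frequent beside Pdx1. It was detected in 15 of 34 cells with Pdx1 (44.1%) and in 7 of 52 without it, and among epithelial cells in 15 of 34 and 7 of 34. Nkx6-2 was detected in 14 of 22 cells with Nkx6-1 and 23 of 64 without it. Among epithelial cells Nkx6-1 was found in like shares with Gata4 (11 of 35) and without it (11 of 33). Its level was lower beside its paralog, with a mean log2 value of 5.01 in the 14 dorsal cells that also held Nkx6-2 and 6.54 in the 8 that did not. In the foregut the order was the other way round, with 6.43 in 10 cells with Nkx6-2 and 5.39 in 13 without it. These comparisons of level by partner were chosen after the values were seen.

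In the ventral bud members also met, in few cells. All 8 ventral Pdx1 cells held another member, namely Ptf1a, Nkx6-1, Nkx6-2 and Gata4 in 4 each and Mnx1 and Prdm16 in 2 each. All 4 Ptf1a cells held Pdx1, and none of the 19 cells without Pdx1 held Ptf1a. Nkx6-1 and Nkx6-2 were together in 5 cells, of 6 and 7. Of the 4 Ptf1a cells, 2 held Nkx6-2 and 1 held Gata4, and Gata4 was detected in 1 of 5 cells with Prdm16 and 4 of 22 without it.

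Within the ventral bud the share of member cells with hepatic genes depended on the minimum used. At least 3 of 10 hepatic genes (such as Alb and Afp) were detected in 22 of the 27 cells, and Pdx1 was detected in 5 of these 22 and in 3 of the other 5. The 22 also held 3 of 6 Nkx6-1 cells, 3 of 7 Nkx6-2 cells and 3 of 5 Gata4 cells. They held 3 of 5 Prdm16 cells, 2 of 4 Ptf1a cells and 1 of 2 Mnx1 cells as well. With a minimum of 4 hepatic genes, taken up here after the values were seen, the split was sharper, since 4 cells sat exactly at 3 and all 4 held Pdx1. The split at 4 is drawn from the values that set it, and is a description only. Pdx1 was then detected in 1 of 18 cells with 4 or more hepatic genes and in 7 of 9 with fewer. Nkx6-2 was detected in 1 of 18 and 6 of 9, Nkx6-1 in 0 of 18 and 6 of 9, and Gata4 in 0 of 18 and 5 of 9. Prdm16 was detected in 2 of 18 and 3 of 9, Ptf1a in 1 of 18 and 3 of 9, and Mnx1 in 0 of 18 and 2 of 9. The ventral shares over all 27 cells are therefore shares over a plate in which 18 cells carried 4 or more liver genes. Median reads were 859747 in the 18 cells and 851654 in the other 9. The part that the hepatic-marker cells play in the ventral values was not tested.

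In the foregut plate 47 of all 82 cells had at least 3 neural tube genes, and most cells with an Nkx6 gene were among them. Most cells with Gata4 carried cardiac genes. Of the 47 cells with at least 3 neural tube genes, 16 held Nkx6-1 (of 23 in all) and 10 held Nkx6-2 (of 13 in all), and none held Gata4. The cut matters here, since 16 of the 47 cells sat exactly at 3 genes and 13 further cells were just under. Among the 31 cells above 3 genes, 11 held Nkx6-1 and 8 held Nkx6-2. Rfx4, a neural tube gene, was detected in 22 of 23 Nkx6-1 cells and in 30 of the 59 others, and Olig2, a motor neuron progenitor gene, in 8 of 23 and 2 of 59. Nrcam (23 of 23 and 33 of 59), Sox1 (10 and 19) and Sox3 (7 and 3) were also more frequent in Nkx6-1 cells. The rest of the list was less frequent in them, namely Pax3 (0 and 12), Zic1 (0 and 4), Fabp7 (2 and 11) and Irx3 (10 and 32). All 11 cells with at least 3 of 10 cardiac genes held Gata4, at a mean log2 value of 9.40 ± 1.18. Of the 14 epithelial foregut cells, 5 held Gata4, 2 Nkx6-1, 1 Mnx1 and 0 Nkx6-2 or Pdx1. Of the 3 Mnx1 cells, 2 held Shh and 1 held T, which are genes of the notochord and its neighbours.

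**Figure D5:**
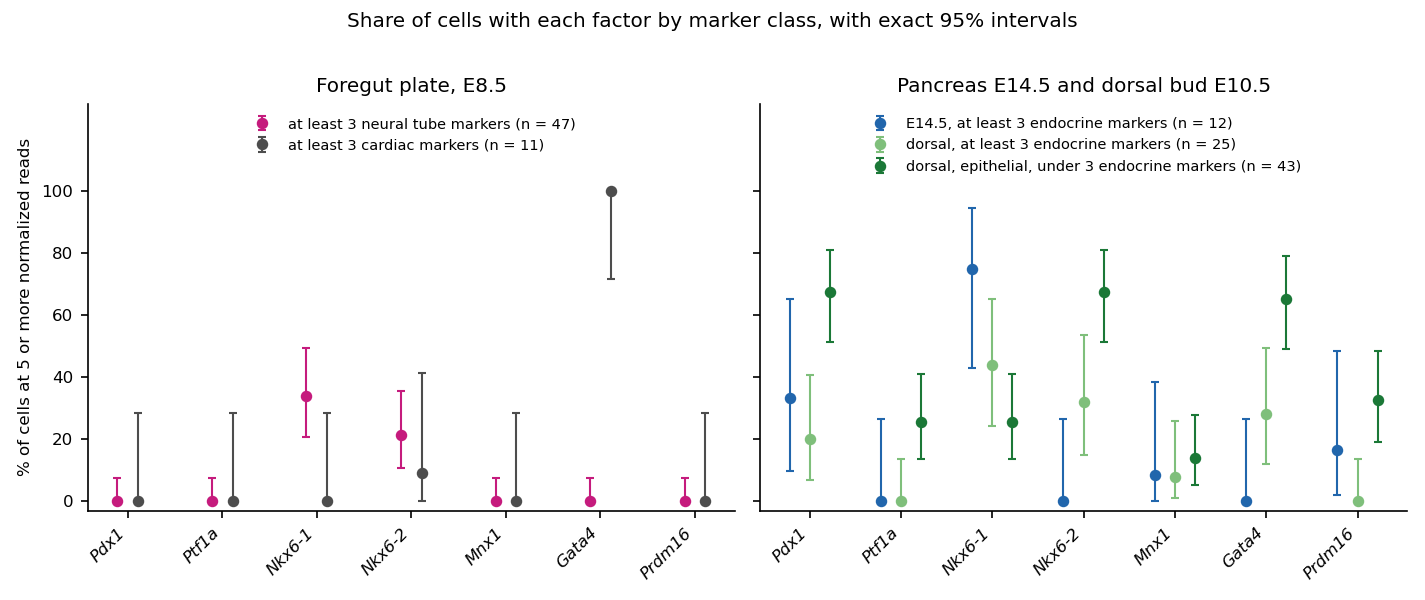
Share of cells with each member inside marker groups. Points give the percentage of cells (vertical axis) for each member (horizontal axis), and lines the exact Clopper-Pearson 95% intervals. The left panel shows foregut cells with at least 3 neural tube (47) or cardiac (11) genes, and the right panel shows E14.5 (12) and dorsal (25) cells with at least 3 endocrine genes and the other dorsal epithelial cells (43). Gata4 is in 11 of 11 cardiac and 0 of 47 neural foregut cells, and Nkx6-1 is the highest point of both endocrine groups.

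Within the dorsal epithelium the members divided by endocrine markers. The 68 epithelial cells split into 25 with at least 3 of 12 endocrine genes (such as Neurog3, Chga and Gcg) and 43 with fewer, with 3 cells exactly at 3 and 1 just under. Nkx6-1 was detected in 11 of 25 endocrine-marker cells (44%) and 11 of 43 others (25.6%), while Pdx1 was detected in 5 of 25 and 29 of 43 (67.4%). Nkx6-2 was detected in 8 of 25 (32%) and 29 of 43 (67.4%), and Gata4 in 7 of 25 (28%) and 28 of 43 (65.1%). Ptf1a and Prdm16 were found in 0 of 25 cells, against 11 (25.6%) and 14 (32.6%) of 43. Levels moved the same way among cells that held the gene: Nkx6-1 averaged 6.12 on the log2 scale in its 11 endocrine-marker cells and 5.01 in its 11 other dorsal cells, Nkx6-2 averaged 5.77 in 8 and 7.61 in 29, and Gata4 averaged 6.34 in 7 and 8.0 in 30. With both plates pooled, Mnx1 was detected in 2 of 25 and 6 of 43, which are few cells. Nkx6-1 was the only member with a higher share in endocrine-marker cells. The Gata4 difference was seen on plate 2A, with 2 of 16 endocrine-marker and 19 of 27 other epithelial cells, while plate 2B had 5 of 9 and 9 of 16. Pdx1 was lower in share on both plates (4 of 16 and 18 of 27, 1 of 9 and 11 of 16), and Nkx6-1 was higher on both (6 of 16 and 6 of 27, 5 of 9 and 5 of 16).

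Outside the epithelium the dorsal members were nearly absent. Of the 17 dorsal cells with at least 3 mesenchyme genes, 1 held Gata4 and none held another member. Median reads were 970863 in these cells and 855037 in the epithelial ones, so the mesenchyme cells were not the shallower. The 1 dorsal cell with at least 3 endothelial genes, on plate 2B, held Gata4 and Prdm16. The 8 dorsal cells with at least 3 hepatic genes overlap the epithelial ones, since all dorsal Pdx1 and Nkx6-2 cells were epithelial. Of these 8, 4 sat exactly at 3, and 24 further cells were just under. The 8 were rich in members, with Pdx1 and Nkx6-2 in 7 each, Gata4 in 6, and Ptf1a, Nkx6-1 and Prdm16 in 4 each.

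At E14.5 all Pdx1, Ptf1a, Nkx6-1 and Mnx1 cells were among the 13 epithelial ones. Nkx6-1 was detected in 9 of these 13 (69.2%, 38.6 to 90.9) and Pdx1 in 5, and they met in 2 cells. All 9 Nkx6-1 cells were among the 12 cells with at least 3 endocrine genes and held Insm1 and Neurod1, endocrine differentiation genes, which were detected in 1 and 3 of the other 64 cells. Prdm16 was found in 3 of 58 mesenchyme-marker cells, in which no other member was detected.

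In the liver Gata4 lay mostly in mesenchyme-marker cells. It was detected in 7 of 16 cells with at least 3 mesenchyme genes and in 1 of 47 with at least 3 hepatic genes. Of the 7, 2 sat exactly at 3 mesenchyme genes. The marker groups overlap, and 3 of the 9 Gata4 cells had at least 3 cardiac genes and 2 at least 3 mesothelium genes. All 9 Gata4 cells held the collagen gene Col1a2, against 11 of the other 69. Col3a1 was detected in 7 of 9 and 12 of 69, and Pdgfra in 6 and 8, while Lum (0 and 2) and Prrx1 (0 and 0) were in none of the 9. Tnni1, a cardiac gene, was detected in 5 and 21, and Wt1, a mesothelium gene, in 3 and 3. Prdm16 was detected in 4 of the 47 and in 1 of the 16.

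Group differences were read as differences in mean log2 value over all cells, and called at 1 or more. Among genes detected in at least 10% of cells of either group, which 6 members passed in each comparison (Mnx1 did not), the share past this size was also counted over all genes. Dorsal cells enter 4 of the 5 comparisons, so these are not independent of each other.

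Ventral minus dorsal bud asks how the 2 rudiments differ. Of the 7 members 0 were higher by 1, as were 3.36% of all genes, and 2 were lower by 1, as were 32.2% of all genes. These were Nkx6-2, with a mean of 1.84 ± 3.25 in ventral and 3.12 ± 3.76 in dorsal cells (-1.28), and Gata4, with 1.49 ± 3.20 and 3.36 ± 3.98 (-1.87). Pdx1 (-0.38), Ptf1a (0.33), Nkx6-1 (-0.06), Mnx1 (-0.16) and Prdm16 (-0.20) stayed under 1. The median member differed by -0.20 and the median gene by -0.61, so the count of lower members is close to what genes in general show. Of the ventral cells that held these genes, 3 of 7 with Nkx6-2 and 3 of 5 with Gata4 had at least 3 hepatic genes. The part of the hepatic-marker cells in these differences was not tested. Against plates 2A and 2B alone, Nkx6-2 gave -1.48 and -1.03 and Gata4 -2.36 and -1.25.

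Ventral bud minus liver sets the bud against its neighbouring organ. Here 4 members were higher by 1, against 25.3% of all genes, and 0 were lower, against 9.68%. Pdx1 differed by 2.69, Nkx6-2 by 1.84, Nkx6-1 by 1.41 and Ptf1a by 1.05, all against liver means of 0, while Gata4 (0.55), Prdm16 (0.48) and Mnx1 (0.34) stayed under 1. The 4 called members passed the filter through the ventral bud alone, so their direction was fixed by it. Of all called genes 72.3% were higher, and 83% and 85.3% under scaling by total reads and by median ratios. Dorsal bud minus liver likewise gave 4 higher members, against 47.6% of all genes, and 0 lower, against 6%. Nkx6-2 differed by 3.12, Pdx1 by 3.07, Gata4 by 2.42 (3.36 ± 3.98 in dorsal and 0.94 ± 2.53 in liver cells) and Nkx6-1 by 1.48, while Ptf1a (0.73), Prdm16 (0.69) and Mnx1 (0.51) stayed under 1. Of the called members, Nkx6-2, Pdx1 and Nkx6-1 passed the filter through the dorsal bud alone, so their direction was fixed by it. The median member differed by 1.05 in the ventral and 1.48 in the dorsal comparison and the median gene by 0.44 and 0.94, so the dorsal count is near the share of all genes. Median genes per cell were 3695 in ventral, 4991.5 in dorsal and 2813 in liver cells.

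Dorsal bud minus foregut covers bud formation. Here 4 members were higher by 1, against 6.9% of all genes, and 0 were lower, against 24.9%. Pdx1 differed by 3.07 and Nkx6-2 by 2.25. Gata4 differed by 1.47 (1.97 on plate 2A and 0.85 on plate 2B), and Prdm16 by 1.11. Ptf1a (0.73), Mnx1 (0.35) and Nkx6-1 (-0.23) stayed under 1. The median member differed by 1.11 and the median gene by -0.37, with the neural and cardiac cells of the foregut plate counted in. Pdx1, Ptf1a and Prdm16 passed the filter through the dorsal bud alone, so their direction here was fixed by it.

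E14.5 minus dorsal bud sets the later pancreas against the dorsal bud; the E14.5 label does not say dorsal. With all cells, 0 members were higher by 1, against 3.97% of all genes, and 3 were lower, against 47.4%. These were Gata4 (-3.36), Nkx6-2 (-3.12) and Pdx1 (-2.54), while Prdm16 (-0.66), Ptf1a (-0.63), Nkx6-1 (-0.58) and Mnx1 (-0.42) stayed under 1. The 3 called members passed the filter through the dorsal bud alone, so their direction was fixed by it. The median gene differed by -0.93. The E14.5 plate is mostly mesenchyme-marker cells, so the comparison was repeated among cells with at least 2 epithelial genes, 13 at E14.5 and 68 dorsal. Nkx6-1 then stood at 5.05 ± 3.91 at E14.5 against 1.87 ± 2.75 in the dorsal bud, a difference of 3.18, and Pdx1 at 2.96 ± 4.01 against 3.88 ± 4.00, a difference of -0.92. Gata4 (-4.11) and Nkx6-2 (-3.95) kept theirs, at 0 in all 13 cells. Among endocrine-marker cells (12 and 25), Nkx6-1 differed by 2.77, Pdx1 by 1.41, Gata4 by -1.82 and Nkx6-2 by -1.91. Nkx6-1 and Nkx6-2 had opposite signs in both, but these are not separate subsets, since 12 of the 13 epithelial E14.5 cells are the endocrine-marker ones, against 25 of the 68 dorsal cells.

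Other regulators of the pancreatic epithelium gave a frame for these values. Of 18 further factors, 7 were higher by 1 and 5 lower in ventral than in dorsal cells (median difference 0.79, against -0.61 for all genes). Of all genes 3.36% were higher and 32.2% lower. Hhex, a liver and ventral foregut gene, was at 5.56 ± 3.96 in ventral and 0.52 ± 1.79 in dorsal cells, and Isl1, a gene of endocrine cells and dorsal mesenchyme, at 0 in ventral and 4.62 ± 4.92 in dorsal cells. Against the liver, 11 of 18 were higher in ventral cells (median 1.28), as were 25.3% of all genes. In dorsal cells 10 were higher and 2 lower (1.5), against 47.6% and 6% of all genes. The dorsal count of higher factors is therefore near the share of all genes. Against the foregut 11 of 18 were higher in dorsal cells (1.41), as were 6.9% of all genes. At E14.5 none was higher and 15 were lower than in dorsal cells (-2.15, against -0.93 for all genes). Of all genes 3.97% were higher and 47.4% lower. These counts take all cells, of which 13 of 73 at E14.5 and 68 of 86 dorsal had at least 2 epithelial genes. No comparison among epithelial cells alone is given for these factors.

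The cofactors of the members followed the general direction of each comparison. Of 14, such as Rbpj, a partner of Ptf1a, and Meis1, a partner of homeodomain proteins, 6 were lower in ventral than in dorsal cells and 0 higher (median -0.77). Over all genes 32.2% were lower and 3.36% higher. Against the liver 7 were higher in ventral cells (1.21) and 10 in dorsal cells (2.07), and none was lower. Over all genes 25.3% and 47.6% were higher, and 9.68% and 6% lower. Between dorsal bud and foregut 0 passed 1 in either direction (-0.30), and at E14.5 4 were lower and Tcf4 was higher than in dorsal cells (-0.49). Over all genes, dorsal minus foregut gave 6.9% higher and 24.9% lower. E14.5 minus dorsal gave 3.97% and 47.4%. Of 6 tip and acinar genes in the table, Cpa1 (2.48 ± 3.94 in ventral and 0.33 ± 1.52 in dorsal cells) and Nr0b2 were higher and Clps lower in the ventral bud (median 0.17). In ventral minus liver, dorsal minus liver and dorsal minus foregut 1 of these 6 was higher and none lower (0.70, 0.17 and 0.13), and at E14.5 1, Clps, was lower than in dorsal cells and none higher (0.06). The shares over all genes given for the cofactors apply to these counts too, and the E14.5 counts again take all cells.

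Inside the 68 dorsal epithelial cells each member had its own company among these regulators, with pairs named after the values were seen. Onecut1, a bud epithelial factor, was detected in 27 of 34 cells with Pdx1 and 10 of 34 without it, and Hes1, a Notch target, in 25 and 8. Nr5a2, a nuclear receptor of the exocrine pancreas, was detected in 17 of 34 cells with Pdx1 and 2 of 34 without it. Isl1 ran the other way, with 4 of 34 and 23 of 34. All 11 Ptf1a cells held Hes1 and Sox9, against 22 and 37 of the 57 others, and none held Isl1, against 27. Nkx6-1 had a different partner in Nkx2-2, an endocrine lineage gene, which was detected in 21 of 22 cells with it and 18 of 46 without it, with 12 of 12 and 13 of 31 on plate 2A and 9 of 10 and 5 of 15 on plate 2B. Mecom, the paralog of Prdm16, was detected in 9 of 14 cells with Prdm16 and 11 of 54 without it. Clps, a pancreatic lipase cofactor, was detected in 12 of 35 cells with Gata4 and 22 of 33 without it. In the ventral bud Cpa1, a tip marker, was detected in 6 of 8 cells with Pdx1 and 2 of 19 without it.

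The genes most like each member were ranked by Pearson correlation of log2 values over the cells of 1 group, as a description, since the cells share a plate and their depth. Over the 86 dorsal cells, Pdx1 was most like Vtn (r = 0.70), Nepn (0.69), Nkx6-2 (0.68), Cdc42ep1 (0.66) and Onecut1 (0.60), among 9984 genes. Nkx6-2 was most like Nepn (0.74), Spon1 (0.73) and Pdx1 (0.68), so each of the pair was among the 3 genes most like the other. Ptf1a was most like Schip1 (0.57) and Rhov (0.51), Gata4 like Cdh6 (0.62) and Cpn1 (0.59), and Prdm16 also like Cdh6 (0.52), with Onecut1 (0.47) and Mecom (0.46) further down. Nkx6-1 was most like Ank (0.54) and Snap25 (0.51), the second a gene of regulated secretion. Over the 82 foregut cells the neighbours were different: Nkx6-1 was most like Nkx2-9 (0.81), Nkx6-2 like Nkx6-1 (0.57), and Gata4 like Gata6 (0.94), Gata5 (0.86) and the cardiac factor Tbx20 (0.86).

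Genes on the opposite strand also lie over Pdx1, Ptf1a and Prdm16. Plut, antisense to Pdx1 with no shared exonic bases, was detected in 5 of 8 ventral cells with Pdx1 and 0 of 19 without it, and in 13 of 34 dorsal cells with Pdx1 and 2 of 52 without it. Ptf1aos shares 609 exonic bases with Ptf1a and was detected in no cell. Prdm16 shares 109 exonic bases with B230104I21Rik, which is not analysed here, and has 2 antisense genes, Gm13133 and Gm13134, with no shared exonic bases. Without a stated strand setting, reads in the bases that Ptf1a and Prdm16 share with these genes cannot be told apart.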

How the data were processed

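The authors deposited 1 table of log2 values for 346 cells and 20474 genes, with empty cells for genes without reads, read here as 0. From the values, the deposited log2 numbers are log2 of reads divided by a cell's size factor, plus 1: with 1 factor per cell, 1647510 of 1647530 values were whole reads within 0.01. Per the submitters' processing notes STAR 2.5.3, Cufflinks, Cuffdiff 2.2.1 and GRCm38 were used; no source used here names the read counter, the size-factor method or the strand setting. The design text states 452 processed cells, and only cells that passed the submitters' quality control were used here. No further filter and no doublet caller were applied, no 2 cells were identical, and 0 columns were left unused. Groups came from the labels. Detection was set at 5 normalized reads, shares have Clopper-Pearson 95% intervals, and cells were also thinned to 500000 reads. No count model was run, since each group is 1 sample. Named genes were the members, genes of fixed lists, and up to 5 correlated genes per member at r of at least 0.4, and at least 0.2 on each dorsal plate. The members and lists were chosen with earlier results of these data known. Code was tested on simulated data. Tools were python 3.11.15, numpy 2.4.6, pandas 2.3.3, scipy 1.17.1 and matplotlib 3.10.9, with GENCODE M21 and RefSeq annotation.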

Additional observations from a re-analysis of the deposited data

How the results depend on the processing

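No paired analysis was possible because the result comes from no test and plate names pair no cells. Of 406 member differences recomputed under other pseudocounts, scalings, limits, thinning (a fixed limit of 5 reads was added after the data were seen) and subsets of cells, 387 moved by less than 1 SD. The main interval held 243 of 259 member shares and 752 of 777 pair shares. No member called in the main setting was called in the opposite direction under another. Differences under 1 in the main setting could change sign, as those of Nkx6-1 at E14.5 and Prdm16 in ventral minus liver did. The counts of members past 1 depended on the scale. With a pseudocount of 10, 1 member was lower in ventral than dorsal cells, against 8.92% of all genes. At the same setting 2 were higher in ventral than liver cells (7.71% of all genes) and 2 higher in dorsal than foregut cells (2.36%). With a pseudocount of 0.1, 6 members were lower at E14.5 than in the dorsal bud, against 66.5% of all genes. With the log2 ratio of mean normalized reads, 1 was lower in ventral than dorsal cells, against 21.1% of all genes. In ventral minus liver 1 was lower (Prdm16, -1.39), against 28% of all genes. At E14.5 1 was higher than in the dorsal bud (Nkx6-1, 1.24), against 17.5% of all genes, and 5 were lower, against 16.2%. At E14.5, 1 member, Nkx6-1, was also higher among cells with at least 2 epithelial genes (3.18), against 10.1% of all genes. It was higher too among cells without 3 markers of a non-epithelial type (2.79), against 8.99%, and among cells with Prox1 (1.20), against 4.84%. The median of all genes shifted with median-ratio scaling, for dorsal minus liver to 1.23 from 0.94, for E14.5 minus dorsal to -1.15 from -0.93 and for ventral minus dorsal to -0.74 from -0.61. Depth limits absence to the stated floors, the widest being 11.1% in the 27 ventral cells.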
